A study of Mus musculus with 16 samples.

Results

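The 45 genes described here encode proteins that copy DNA or that carry a cell through mitosis. They were split into 24 replication genes (Mcm2 to Mcm7, Mcm10, Cdc6, Cdt1, Cdc45, Gins2, Pcna, Rfc3, Rfc4, Rrm1, Rrm2, Tyms, Tk1, Ccnd1, Ccne1, Ccne2, Cdk2, E2f1 and Cdca7) and 21 mitotic genes (Ccna2, Ccnb1, Ccnb2, Cdk1, Cdc20, Cdca3, Cdca5, Cdca8, Birc5, Aurka, Aurkb, Bub1, Bub1b, Plk1, Top2a, Mki67, Kif11, Kif20a, Nusap1, Tpx2 and Foxm1). The genes were listed by name, and their probes were found through the RefSeq accession that each probe carries. All 45 were present among the 20659 genes named on the array and among the 15053 genes tested. The probe of each was well above background, by the mark of the Agilent software, in 16 of 16 control channels and in all 16 treated channels, and was saturated on no array.

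The cells were primary hepatocytes of male C57Bl/J mice, whose age the labels do not give. They had been plated 48 h before treatment. They were cultured in Williams Medium E and either left untreated or exposed for 48 h to SQ1, an inhibitor of squalene synthase (100 µM as labelled, a unit that is uncertain because compounds of this kind act at far lower concentrations), or to pravastatin, an inhibitor of HMG-CoA reductase (30 µM). Each drug was measured on 8 arrays, each of which carried RNA of a treated culture in 1 dye and RNA of an untreated culture in the other. The dyes were swapped between replicates 1 to 4 and replicates 5 to 8, and the deposited files name the same 8 untreated cultures as partners of both drugs. The drug comparisons therefore share their controls, and their doses differ. All values are log2 ratios of treated over control, so that a negative value means a lower transcript level in treated cells, and values after ± give the limma standard error (n = 8 arrays for each drug). A gene was called lower or higher at a limma adjusted p under 0.05, with Benjamini-Hochberg adjustment over all 15053 genes.

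Before a cell can copy its DNA, origins of replication are licensed: Cdc6 and Cdt1 load the Mcm2 to Mcm7 ring, the core of the replicative helicase, and Mcm10, Cdc45 and the GINS complex turn it into a moving fork. Cyclin E with Cdk2 and the E2F transcription factors start this program, while the later mitotic genes depend on the DREAM and MuvB complexes and on Foxm1. Hepatocytes of the adult liver rest outside the cycle, can re-enter it after loss of tissue, and in primary culture divide little unless growth factors drive them.

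Promoters are shown for the called genes with the largest fall under SQ1, on all 8 arrays, that the promoter table holds: 3 from each list. The letters are RefSeq sequence of GRCm38.p6, 250 bases 5′ to 3′ on the gene's strand, ending at the base before the annotated transcription start. Capitals mark 3 motifs found on either strand: E2F sites (TTTGGCG or TTTCCCG), the CHR element of mitotic genes (TTTGAA or TTCGAA) and the CCAAT box. The CCAAT box appears as ATTGG where it lies on the opposite strand.

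Rrm2 (chr12:24708004-24708253, plus strand): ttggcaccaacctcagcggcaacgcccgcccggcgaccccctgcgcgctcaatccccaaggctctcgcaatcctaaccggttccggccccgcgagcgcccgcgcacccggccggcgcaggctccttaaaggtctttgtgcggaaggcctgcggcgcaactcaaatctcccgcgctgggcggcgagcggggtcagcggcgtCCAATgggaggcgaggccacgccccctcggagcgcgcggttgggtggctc

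Tk1 (chr11:117826015-117826264, minus strand): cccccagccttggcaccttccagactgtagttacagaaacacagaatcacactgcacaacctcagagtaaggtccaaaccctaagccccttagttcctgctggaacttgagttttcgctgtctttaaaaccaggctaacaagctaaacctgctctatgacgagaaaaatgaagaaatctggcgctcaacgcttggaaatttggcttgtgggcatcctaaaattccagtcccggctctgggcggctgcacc

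Mcm3 (chr1:20820313-20820562, minus strand): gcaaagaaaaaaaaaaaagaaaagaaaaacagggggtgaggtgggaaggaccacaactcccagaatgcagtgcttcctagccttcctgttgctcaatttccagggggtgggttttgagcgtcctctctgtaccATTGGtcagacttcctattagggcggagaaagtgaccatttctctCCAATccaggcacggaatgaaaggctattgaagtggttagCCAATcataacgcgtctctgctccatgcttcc

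Birc5 (chr11:117848987-117849236, plus strand): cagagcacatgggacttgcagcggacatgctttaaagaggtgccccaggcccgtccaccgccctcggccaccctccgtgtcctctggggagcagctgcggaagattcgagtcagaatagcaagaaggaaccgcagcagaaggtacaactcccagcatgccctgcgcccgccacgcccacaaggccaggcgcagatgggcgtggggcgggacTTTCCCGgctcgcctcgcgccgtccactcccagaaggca

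Cdc20 (chr4:118437344-118437593, minus strand): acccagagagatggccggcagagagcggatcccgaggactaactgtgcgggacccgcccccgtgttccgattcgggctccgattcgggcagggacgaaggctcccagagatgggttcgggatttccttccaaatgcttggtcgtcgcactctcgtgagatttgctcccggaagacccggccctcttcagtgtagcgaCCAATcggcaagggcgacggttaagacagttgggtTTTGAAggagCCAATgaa

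Mki67 (chr7:135716380-135716629, minus strand): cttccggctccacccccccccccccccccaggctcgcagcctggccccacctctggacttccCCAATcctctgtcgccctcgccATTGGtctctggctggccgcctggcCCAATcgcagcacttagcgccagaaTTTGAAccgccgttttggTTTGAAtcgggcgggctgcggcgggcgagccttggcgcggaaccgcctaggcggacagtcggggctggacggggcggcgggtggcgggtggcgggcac

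In Cdc20 and Mki67 the CHR letters lie downstream of a CCAAT box, and no matches overlap. Birc5 holds an E2F match 39 to 33 bases before the start, and Tk1 holds none of these letters in this window. The table held promoters for 36 of the 45 genes, with 2 entries for Mcm7. E2F letters were present in 6 of 21 replication promoters (28.6%), in 2 of 16 mitotic promoters (12.5%) and in 3.92% of all 32851 promoters of this length. CHR letters were present in 4 of the 21 replication promoters, in 8 of the 16 mitotic promoters and in 17.1% of all promoters. CCAAT letters were present in 13 replication promoters (61.9%), in 13 mitotic promoters (81.2%) and in 33.8% of all. These are counts of letters in fixed windows, and a match is not a measured binding site.

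With SQ1, 20 of the 24 replication genes and all 21 mitotic genes were lower, and none of the 45 was higher. Over all genes tested, 16.5% were called lower and 15.8% higher. The median log2 ratio was -0.30 for the replication genes and -0.58 for the mitotic genes, against -0.0022 for all genes. The ratio was below 0 on 8 of 8 arrays for 14 replication and 18 mitotic genes, which held for 11.8% of all genes. These are bulk cultures, in which fewer cells in cycle and less RNA per cycling cell cannot be told apart. With slide as a random block 16 replication and 20 mitotic genes were lower (8.78% of all genes). The counts were 12 and 8 when scan day was the random block (8.28% of all genes), and 11 and 20 with median centring of each array in place of loess (3.97% of all genes).

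**Figure D1:**
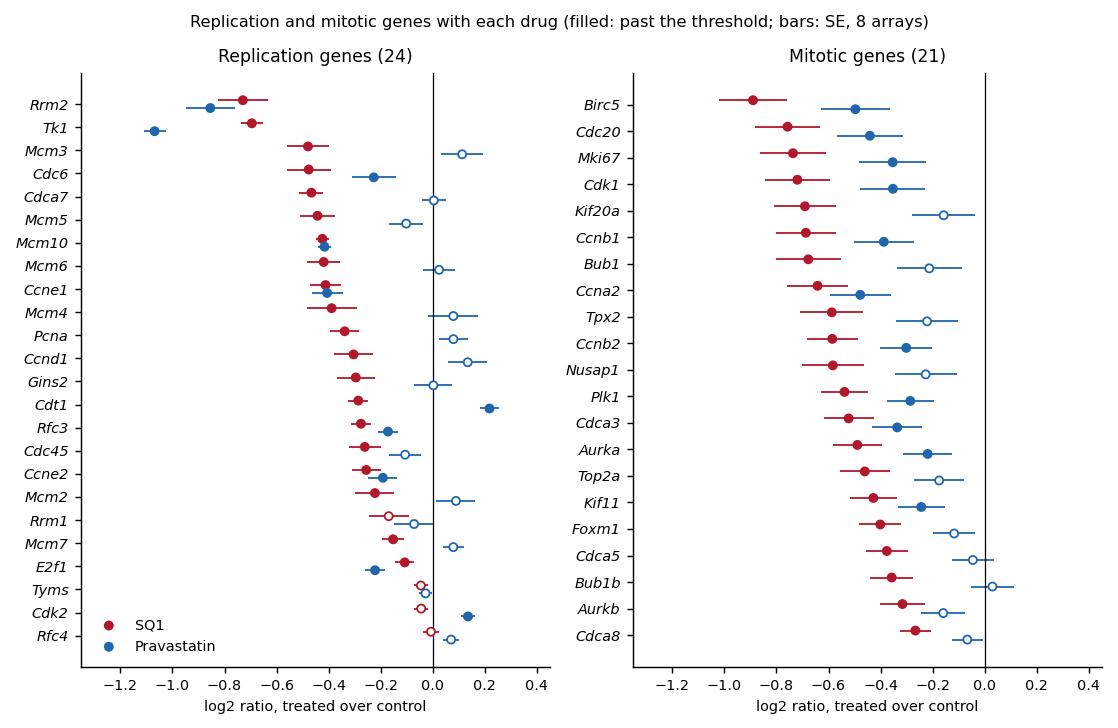
Log2 ratio of treated over control for each of the 24 replication and 21 mitotic genes (rows), with SQ1 in red and pravastatin in blue; points are limma estimates over 8 arrays, bars are standard errors, and filled points passed the adjusted p threshold. SQ1 points lie left of 0 for every gene, while pravastatin points of the replication genes lie on both sides, with Tk1 and Rrm2 farthest left.

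Among the genes that supply deoxynucleotides, Rrm2 and Tk1 fell and Rrm1 and Tyms did not pass the test with SQ1. Rrm2, the cycle-regulated small subunit of ribonucleotide reductase, had a lowest ratio of -1.41, a median of -0.68 and a highest of -0.31 over the 8 arrays. All 8 were below 0, and the fitted fall was 1.66-fold (-0.73 ± 0.095, limma adjusted p = 2.58e-05). Tk1, the cytosolic thymidine kinase of the salvage pathway, ranged more narrowly, from -0.89 through a median of -0.70 to -0.56. Its fitted fall was 1.62-fold (-0.70 ± 0.042, limma adjusted p = 6.89e-09). Rrm1, the large subunit of the same reductase, stood at -0.17 ± 0.077 (limma adjusted p = 0.107), with ratios from -0.56 to 0.15. Tyms, thymidylate synthase, stood at -0.05 ± 0.026 with a 95% interval of -0.10 to 0.01.

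The 6 helicase genes Mcm2 to Mcm7 all fell with SQ1, by between 0.15 (Mcm7) and 0.48 (Mcm3) on the log2 scale. Mcm2 (limma adjusted p = 0.0317), Mcm4 and Mcm7 were not called with median centring or within slide 1 (-0.06, -0.23 and -0.10). Mcm2 and Mcm7 were not called with slide as a random block, nor Mcm2 in the fit on SQ1 arrays alone. Mcm3 had a lowest ratio of -0.79, a median of -0.49 and a highest of -0.07, all below 0 (fit -0.48 ± 0.080, limma adjusted p = 0.000252). Mcm5 (-0.44 ± 0.066) and Mcm6 (-0.42 ± 0.062) were also below 0 on 8 of 8 arrays, whereas Mcm4 and Mcm7 were so on 7 and Mcm2 on 6. Of the loading factors, Cdc6 fell by 0.48 ± 0.084 and Cdt1 by 0.29 ± 0.038, each on 8 of 8 arrays. Cdt1 was not called with median centring. A further Cdc6 probe read -0.18 with SQ1 and -0.06 with pravastatin. Mcm10, which links the helicase to DNA polymerase alpha, had the smallest error of the 45 genes: its ratios ran from -0.50 through -0.43 to -0.33 (fit -0.42 ± 0.025, limma adjusted p = 5.86e-09). Cdc45 fell by 0.26 and Gins2, a GINS subunit, by 0.30, below 0 on 7 and 6 of the 8 arrays. Neither was called within slide 1, nor Gins2 with median centring.

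Pcna, the sliding clamp of the fork, fell with SQ1 by 0.34 ± 0.056, below 0 on 8 of 8 arrays. The clamp loader subunits parted: Rfc3 fell by 0.28 ± 0.038, and Rfc4 stood at -0.01 ± 0.032 with a 95% interval of -0.07 to 0.06. A further Rfc4 probe read 0.0002. Of the genes that start S phase, Ccne1 fell by 0.41 ± 0.060 and Ccne2 by 0.26 ± 0.056, both on 8 of 8 arrays. A further Ccne1 probe read -0.19. Ccnd1, the cyclin of early G1, fell by 0.30 ± 0.075 and E2f1 by 0.11 ± 0.037 (limma adjusted p = 0.0352). Neither was called with median centring, within slide 1, or with slide (limma adjusted p = 0.0788 and 0.214) or scan day as a random block. E2f1 was also not called when SQ1 replicate 1, 2, 4, 6, 7 or 8 was left out. Pcna and Rfc3 were not called with median centring, nor Ccne2 within slide 1. Cdk2 stood at -0.04 ± 0.027 (limma adjusted p = 0.229). Cdca7, which recruits the chromatin remodeller Hells, fell by 0.47 ± 0.046 on 8 of 8 arrays.

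By the probe used for each gene, the mitotic genes with the largest fall under SQ1 were Birc5, Cdc20, Mki67 and Cdk1. Birc5, a subunit of the chromosomal passenger complex, had a lowest ratio of -1.60, a median of -0.78 and a highest of -0.22. The fall was 1.85-fold (-0.89 ± 0.13, limma adjusted p = 8.58e-05), and a pair of other Birc5 probes read -0.61 each. Cdc20, the activator of the anaphase-promoting complex, ran from -1.36 through -0.70 to -0.17 (fit -0.76 ± 0.13). Mki67, the Ki-67 protein of dividing cells, ran from -1.30 through -0.59 to -0.12 (fit -0.74 ± 0.13). Cdk1, the kinase that drives entry into mitosis, ran from -1.40 through -0.58 to -0.22 (fit -0.72 ± 0.12). A second Cdk1 probe above background read -0.49. The mean of the Cdk1 probes gave -0.61, a smaller fall than that of Kif20a (-0.69). On each of these genes all 8 arrays were below 0, yet the lowest array lay more than 1 log2 unit under the highest.

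The other mitotic genes fell with SQ1 as well, from 0.69 (Kif20a and Ccnb1) down to 0.27 (Cdca8). They include the cyclins Ccna2 (-0.64) and Ccnb2 (-0.59), the kinases Plk1 (-0.54), Aurka (-0.49) and Aurkb (-0.32), and the checkpoint proteins Bub1 (-0.68) and Bub1b (-0.36). The spindle proteins Tpx2 (-0.59), Nusap1 (-0.58) and Kif11 (-0.43) fell too, as did the topoisomerase Top2a (-0.46), Cdca3 (-0.52), Cdca5 (-0.38) and the transcription factor Foxm1 (-0.40). Cdca5, Cdca8 and Aurkb were below 0 on 7 of 8 arrays and the other 18 mitotic genes on all 8. A further 13 probes measured 10 of the 45 genes, of which 11 were above background. Among those 11, the sign of the SQ1 ratio matched the probe used for 10, and Rfc4, near 0 on both probes, did not match. A second Tpx2 probe read -0.17. The size of the fall of Tpx2, like that of Cdc6, Ccne1, Birc5 and Cdk1, thus differs between probes.

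With pravastatin, 8 replication genes were lower, 2 were higher and 14 did not pass the test, and 11 mitotic genes were lower, 0 were higher and 10 did not pass. Pravastatin changed far more of the array: 35.8% of all genes were called lower and 30.9% higher. The replication count of 8 of 24 (33.3%) is thus near the background. The mitotic count of 11 of 21 (52.4%) is above it in this fit, but not in every alternative. The median log2 ratio was -0.01 for the replication genes and -0.23 for the mitotic genes, against -0.0115 for all genes; the replication median was 0.05 with the Agilent ratio or median centring. The ratio was below 0 on 8 of 8 arrays for 7 replication genes and for 0 mitotic genes, which held for 26.1% of all genes. The mitotic count fell to 7 without pravastatin replicate 2 and to 7 without replicate 4, and it was 3 with slide as a random block (30.1% of all genes). With the Agilent ratio it was 6 (4624 of all genes), and at an adjusted p of 0.01 it was 5 (4694 of all genes).

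Tk1 and Rrm2 had the largest falls with pravastatin among the 45 genes. Tk1 ran from -1.25 through a median of -1.02 to -0.92, so that every array showed a fall of similar size (2.10-fold, -1.07 ± 0.042, limma adjusted p = 4.2e-12). Rrm2 ran from -1.12 through -0.89 to -0.62 (1.81-fold, -0.85 ± 0.095, limma adjusted p = 5.98e-07). Mcm10 ran from -0.49 through -0.41 to -0.36 (-0.42 ± 0.025), and Ccne1 from -0.57 through -0.48 to -0.12 (-0.41 ± 0.060). Smaller falls were measured for Cdc6 (-0.23), E2f1 (-0.22), Ccne2 (-0.19) and Rfc3 (-0.17).

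Cdt1 and Cdk2 were higher with pravastatin. Cdt1 was above 0 on all 8 pravastatin arrays, from 0.07 through a median of 0.21 to 0.35 (fit 0.22 ± 0.038, limma adjusted p = 7.74e-05). It was called in opposite directions with the drugs, since all 8 SQ1 arrays lay between -0.40 and -0.12. Cdk2 was also above 0 on all 8 pravastatin arrays, from 0.08 to 0.23 (fit 0.14 ± 0.027). The helicase genes Mcm2 to Mcm7 did not pass the test with pravastatin, with values from -0.10 (Mcm5) to 0.11 (Mcm3). Pcna (0.08), Rfc4 (0.07), Rrm1 (-0.07), Tyms (-0.03), Gins2 (0.0024), Cdc45 (-0.11), Ccnd1 (0.13) and Cdca7 (0.0044) did not pass either. Their 95% intervals reach from -0.24 (Mcm5, Cdc45 and Rrm1) to 0.29 (Ccnd1), so that changes of up to that size were not resolved.

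The 11 mitotic genes lower with pravastatin were led by Birc5 (-0.50 ± 0.13), Ccna2 (-0.48 ± 0.12) and Cdc20 (-0.44 ± 0.13). They also include Ccnb1 (-0.39), Mki67 (-0.35), Cdk1 (-0.35), Cdca3 (-0.34), Ccnb2 (-0.30), Plk1 (-0.29), Kif11 (-0.24) and Aurka (-0.22, limma adjusted p = 0.0487). Each of the 11 was below 0 on 7 of the 8 arrays, and replicate 5 was the exception. Birc5 ran from -0.98 through a median of -0.60 to 0.09, and Cdk1 from -0.72 through -0.44 to 0.27. The 10 that did not pass were Cdca5 (-0.05), Cdca8 (-0.07), Aurkb (-0.16), Bub1 (-0.21), Bub1b (0.03), Top2a (-0.17), Kif20a (-0.16), Nusap1 (-0.23), Tpx2 (-0.22) and Foxm1 (-0.12). Their 95% intervals reach down to -0.48 (Nusap1, Tpx2 and Bub1). Of the 11 further probes above background, 10 had the sign of the probe used.

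The size of the fall differed widely between arrays, and the arrays of a replicate number share their untreated culture. With SQ1 the median ratio of the mitotic genes was -1.11 on replicate 7, -0.88 on replicate 4 and -0.80 on replicate 6. It was only -0.10 on replicate 1 and -0.27 on replicate 5, and lay between -0.53 and -0.31 on replicates 2, 3 and 8. With pravastatin it was -0.55 on replicate 2, -0.54 on replicate 4 and -0.41 on replicate 7, and it was -0.0077 on replicate 1 and 0.19 on replicate 5. On pravastatin replicate 5, 0 of the 21 mitotic genes were below 0. The SD over the 8 array medians was 0.35 with SQ1. For the replication genes the medians ran from -0.54 to -0.10 with SQ1 (SD 0.16) and from -0.26 to 0.15 with pravastatin. The median of all genes stayed between -0.03 and 0.0059 on the 16 arrays.

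**Figure D2:**
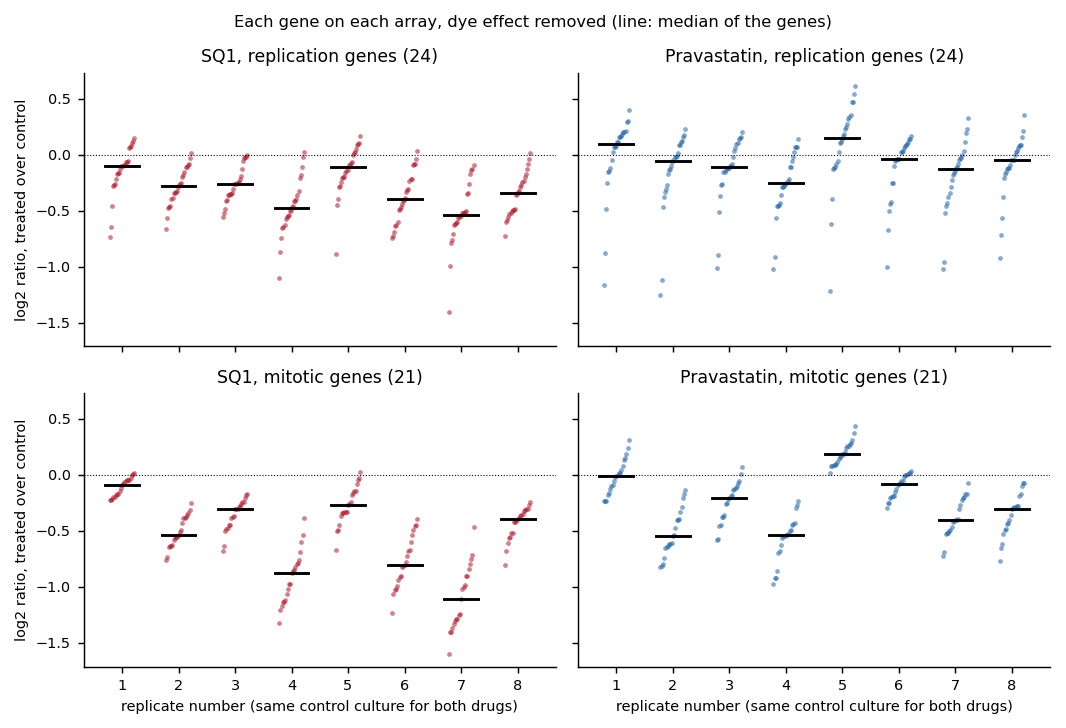
Log2 ratio of treated over control of every replication gene (top) and mitotic gene (bottom) on each array, with the dye effect removed; points are genes, black lines are list medians, and the horizontal axis gives the replicate number, which names the same untreated culture for both drugs. The mitotic median is lowest on SQ1 replicate 7 (-1.11) and highest on pravastatin replicate 5 (0.19).

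The untreated cultures differed from each other in these genes more than the treated cultures did. Channel levels were taken after normalization between arrays and set against the mean of cultures of the same kind in the same dye. The median deviation of the mitotic genes was -0.71 in the untreated culture of replicate 5 and -0.56 in that of replicate 1, and it was 0.55 and 0.54 in those of replicates 4 and 7. The reading of each untreated culture on its SQ1 array was near that on its pravastatin array, for example -0.74 and -0.66 in replicate 5 and 0.57 and 0.58 in replicate 4. The SD over the 8 cultures was 0.49 in untreated, 0.27 in SQ1-treated and 0.26 in pravastatin-treated cells. For the replication genes these SDs were 0.23, 0.10 and 0.13. The untreated cultures had a wider SD than both treated kinds for 21 of 21 mitotic genes, for 18 of 24 replication genes and for 39.8% of all genes tested. That untreated level is the mean of the SQ1 and pravastatin arrays of a culture, while a treated level comes from a single array. Read on the SQ1 array only, the untreated SD was wider than the SQ1 SD for 83.3% of replication genes and 67.5% of all genes. On the pravastatin array these shares were 79.2% and 64.1%. Both shares were 100% for the mitotic genes. The median SD of all genes was 0.12 in untreated cultures and 0.11 in either treated kind. A control that is high in mitotic transcripts lowers the ratio by arithmetic, so that the spread of the ratios and of the controls are not separate measurements.

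**Figure D3:**
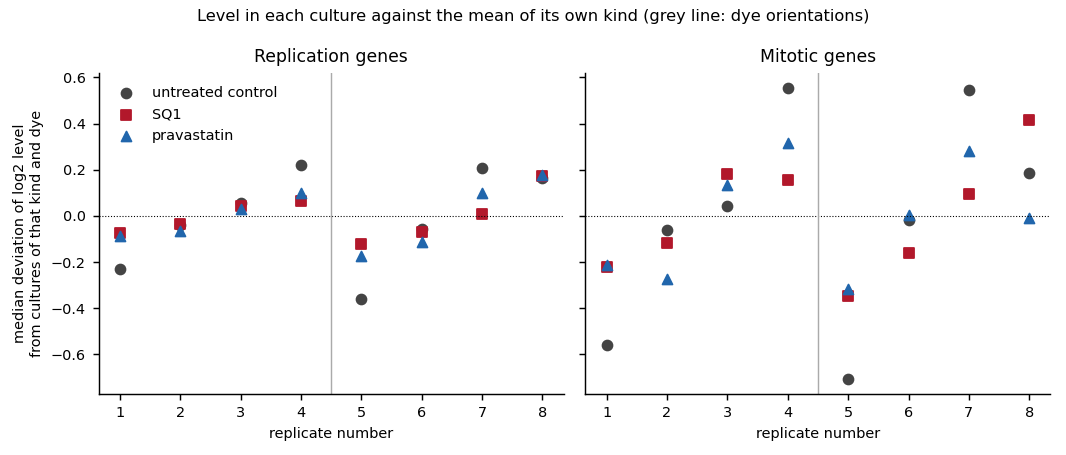
Median deviation of the log2 channel level of the replication genes (left) and mitotic genes (right) in each culture from the mean of cultures of its kind in the same dye; circles are untreated controls (mean of the SQ1 and pravastatin arrays that carry them), squares SQ1, triangles pravastatin, and the grey line parts the dye orientations. For the mitotic genes the untreated cultures span -0.71 to 0.55, wider than the SQ1 cultures (-0.35 to 0.42) and the pravastatin cultures (-0.32 to 0.32).

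Each slide held 4 arrays of 1 drug, with both dye orientations on each. With SQ1, 12 replication and 15 mitotic genes were lower on slide 1 (replicates 1, 2, 5 and 6), where 19.5% of all genes were, and 21 and 21 were lower on slide 2, where 12.9% of all genes were. The median mitotic ratio was -0.41 on slide 1 and -0.68 on slide 2, so that both slides lay on the same side of 0. With pravastatin, 0 mitotic genes were lower on slide 3 (replicates 1, 2, 5 and 6; median -0.10; 35.2% of all genes) and 13 on slide 4 (median -0.37; 30.4% of all genes). The replication genes gave 7 lower and 7 higher on slide 3 (median 0.07), where 29.1% of all genes were higher, and 10 lower and 2 higher on slide 4, where 27% were. Slide 3 was scanned on 1 day and the other 3 slides on another. A test of slide 2 against slide 1 passed for Ccne1, Cdc6 and Gins2, a test of slide 4 against slide 3 passed for Ccne1, Mcm4 and Mcm6, and neither passed for any mitotic gene.

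The drugs were then compared directly, as SQ1 minus pravastatin on the log2 scale. The replication genes were lower with SQ1 than with pravastatin for 12 of 24 and higher for 1, and the mitotic genes lower for 5 of 21 and higher for 0. Over all genes 23.9% were lower and 29.3% higher in this comparison, so that the mitotic count (23.8%) is at the background. The median difference was -0.21 for the replication genes and -0.30 for the mitotic genes, against 0.0128 for all genes. The replicate number names the untreated culture that both drugs share, and the fit with the replicate block calls 16 replication genes lower and 2 higher, and 17 mitotic genes lower and 0 higher. Under that block 29.3% of all genes were lower and 34.7% higher. With slide as a random block 9 replication genes and 0 mitotic genes were lower (16.1% of all genes).

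Mcm3 had the largest difference among the replication genes, -0.59 ± 0.11 (95% interval -0.83 to -0.35, limma adjusted p = 0.000346), lower with SQ1 in 8 of 8 pairs of arrays. Cdt1 differed by -0.50 ± 0.053 (-0.62 to -0.39, limma adjusted p = 9.26e-07) and Cdca7 by -0.47 ± 0.066 (-0.61 to -0.33), again in 8 of 8 pairs. All 6 genes of the Mcm2 to Mcm7 ring were lower with SQ1, by between 0.23 (Mcm7) and 0.59 (Mcm3). Pcna (-0.42), Ccnd1 (-0.44), Gins2 (-0.30) and Cdk2 (-0.18) were lower as well. With slide as a random block Mcm2, Mcm5 and Gins2 were not called (limma adjusted p = 0.0997, 0.0573 and 0.0796). With median centring Mcm2, Mcm5, Mcm7, Gins2 and Cdk2 were not called. Each slide held arrays of a single drug, so this difference also lies between slides. Tk1 went the other way: it was higher with SQ1 by 0.37 ± 0.060 (0.25 to 0.50, limma adjusted p = 6.83e-05), which is a smaller fall than with pravastatin, in 8 of 8 pairs. For Mcm10 the difference was -0.0084 with an interval of -0.08 to 0.07, and for Ccne1 -0.0057 with an interval of -0.18 to 0.17. For Rrm2 it was 0.13 with an interval of -0.16 to 0.41.

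Among the 5 mitotic genes called, Kif20a differed most, by -0.53 ± 0.17 (95% interval -0.89 to -0.17, limma adjusted p = 0.0147, and 4.54e-04 with the replicate block). None of the 5 passed with slide as a random block (limma adjusted p = 0.0864 for Kif20a). Kif20a is a kinesin of cytokinesis. Bub1 (-0.46 ± 0.18) and Bub1b (-0.39 ± 0.12) encode proteins of the spindle checkpoint. Cdca5 (-0.33), which protects cohesion of sister chromatids, and Foxm1 (-0.28) were also called. These 5 were lower with SQ1 in 8 of 8 pairs. Birc5, the largest faller of the list by the probe used, differed by -0.39 with an interval of -0.79 to 0.0015 (limma adjusted p = 0.0872, and 0.0153 with the replicate block). Ccna2, Cdca3, Aurkb and Kif11 passed neither fit, with differences from -0.19 to -0.16, though Kif11 passed with fixed pairs of arrays (limma adjusted p = 0.0393). The count of 5 ran from 2 (without SQ1 replicate 4 or pravastatin replicate 5) to 14 (without SQ1 replicate 1). It was 10 without pravastatin replicate 4, and 3 without SQ1 replicate 6 or 7 or without pravastatin replicate 1, 3 or 6.

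**Figure D4:**
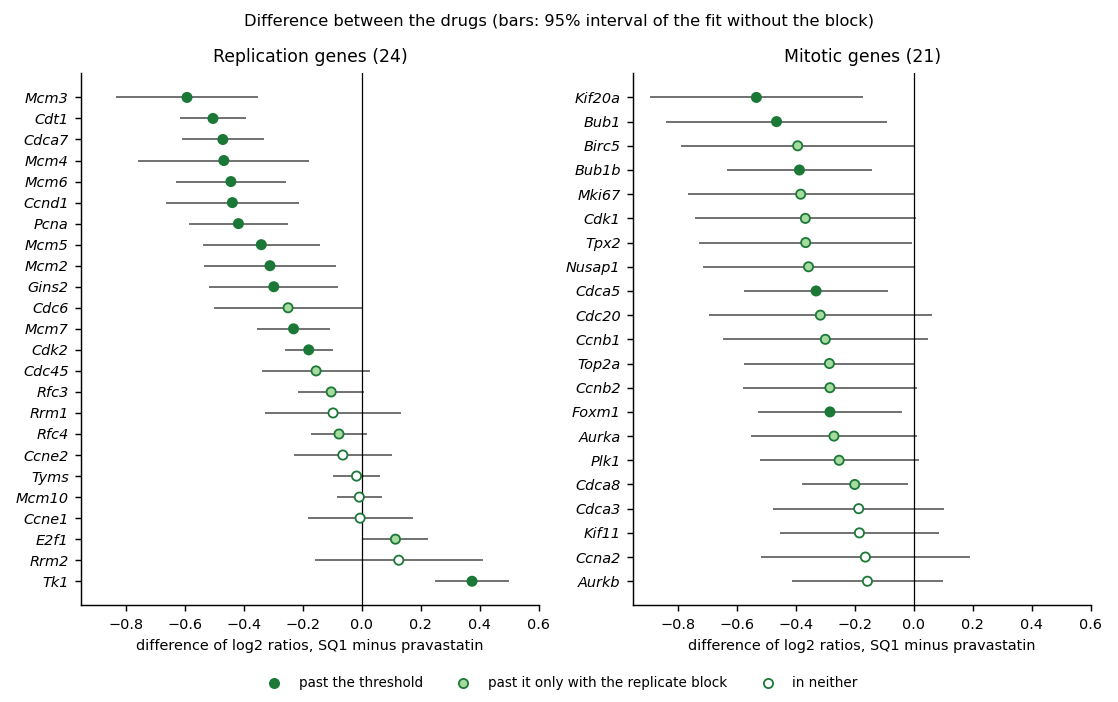
SQ1 minus pravastatin difference of the log2 ratios for each replication gene (left) and mitotic gene (right); points are limma estimates, bars their 95% intervals, dark points passed the threshold, light points passed it only with the replicate block, and open points in neither fit. Tk1 is the one dark point right of 0 (0.37), and 5 mitotic genes are dark.

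Other genes of these pathways, from lists that name none of the 45, were examined in the same fit. The shares of all genes in that fit were 16.5% lower and 15.8% higher with SQ1, and 35.8% and 30.9% with pravastatin. Of 74 further spindle, kinetochore and cytokinesis genes, 58 were lower and 1 was higher with SQ1 (median -0.35), led by the kinase Pbk (-0.82 ± 0.11), the ubiquitin-conjugating enzyme Ube2c (-0.73 ± 0.12) and the kinetochore motor Cenpe (-0.67 ± 0.12). The exception was Pkmyt1, an inhibitory kinase of Cdk1, at 0.24. The counts were 42 lower and 1 higher with slide as a random block. With pravastatin 23 were lower and 13 higher (median -0.10), shares of 31.1% and 17.6%, each below that of all genes. The largest were Zwint, a kinetochore protein (1.15 ± 0.07), the F-box cyclin Ccnf (a 2.01-fold fall) and Spc24 (-0.86 ± 0.05), and with slide as a random block 13 were lower and 7 higher. Of 14 condensin and cohesin genes, 8 were lower and 0 higher with SQ1, with Esco2, an acetyltransferase of cohesin, at -0.86. The count was 2 lower with slide as a random block. With pravastatin 1 was lower (Smc4, -0.19) and 5 were higher, against 1 lower and 1 higher with that block. The 5 of 14 (35.7%) is near the share of all genes.

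Of 47 further fork and origin genes, 23 were lower and 1 (Pold2, 0.15) higher with SQ1 (median -0.12). Uhrf1, which directs maintenance of DNA methylation (-0.66 ± 0.13), Dscc1 (-0.57 ± 0.08) and Hells (-0.43 ± 0.12) led, and 15 were lower and 1 higher with slide as a random block. With pravastatin 14 were lower and 12 higher, shares of 29.8% and 25.5%, each below that of all genes. The largest were the nuclease and helicase Dna2 (-0.87 ± 0.06), the primase subunit Prim1 (-0.68 ± 0.03) and Dbf4, the activator of the Cdc7 kinase (0.59 ± 0.07). Of 15 genes of replication-coupled repair and checkpoints, 8 were lower and 0 higher with SQ1, among them Exo1 (-0.70) and Fanci (-0.51), and 4 were lower and 1 (Blm, 0.24) higher with pravastatin. These counts became 7 lower with SQ1, and 1 lower and 1 higher with pravastatin, with slide as a random block. Without the block, the lower share of this list was 53.3% with SQ1, against 16.5% of all genes. With pravastatin it was 26.7%, against 35.8% of all genes.

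Other genes of deoxynucleotide supply moved in both directions with pravastatin. Of 10 such genes outside the 45, 5 were lower and 2 higher with pravastatin, among them Shmt1, a serine hydroxymethyltransferase (-1.39 ± 0.06), and Rrm2b, the p53-inducible subunit of ribonucleotide reductase (0.35). The shares were 50% and 20%, against 35.8% lower and 30.9% higher of all genes. With SQ1, 2 were lower (Dut -0.32 and Shmt1 -0.22) and 0 higher, and 1 was lower with slide as a random block. The lower share of 20% without the block is near the 16.5% of all genes, of which 15.8% were higher. Of 24 further regulators of G1 and S entry, 11 were lower and 3 higher with SQ1, led by E2f8 (-0.77), Fbxo5 (-0.59) and E2f7 (-0.43). Under the slide block 4 were lower and 0 higher. With pravastatin 7 were lower and 11 higher, led by Myc (1.05 ± 0.04), E2f2 (-0.74) and E2f8 (-0.63). The shares of these 24 regulators were 45.8% lower and 12.5% higher with SQ1, and 29.2% lower and 45.8% higher with pravastatin.

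Inhibitors of cyclin-dependent kinases and other arrest genes moved in both directions. With SQ1, 3 of 12 were higher, namely Ccng1 (0.21 ± 0.03), Cdkn1a, the p21 inhibitor (0.18 ± 0.03), and Cdkn1c (0.13 ± 0.04), and Gadd45a was lower (-0.38 ± 0.11). Under the slide block 2 were higher and 0 lower. With pravastatin, 5 were higher, led by Cdkn2b, the p15 inhibitor, at 3.62-fold (1.85 ± 0.10, limma adjusted p = 7.85e-11), Ccng2 (0.71 ± 0.05) and Gadd45a (0.63 ± 0.11). The other 2 were Cdkn1a (0.13) and Ccng1 (0.10). The 4 lower ones were Cdkn2c (-0.62), Cdkn2d (-0.25), Cdkn3 (-0.22) and Btg2 (-0.17). Under the slide block 4 were higher and 3 lower with pravastatin. The shares were 41.7% higher and 33.3% lower with pravastatin, against 30.9% and 35.8% of all genes. They were 25% higher and 8.33% lower with SQ1, against 15.8% and 16.5% of all genes.

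**Figure D5:**
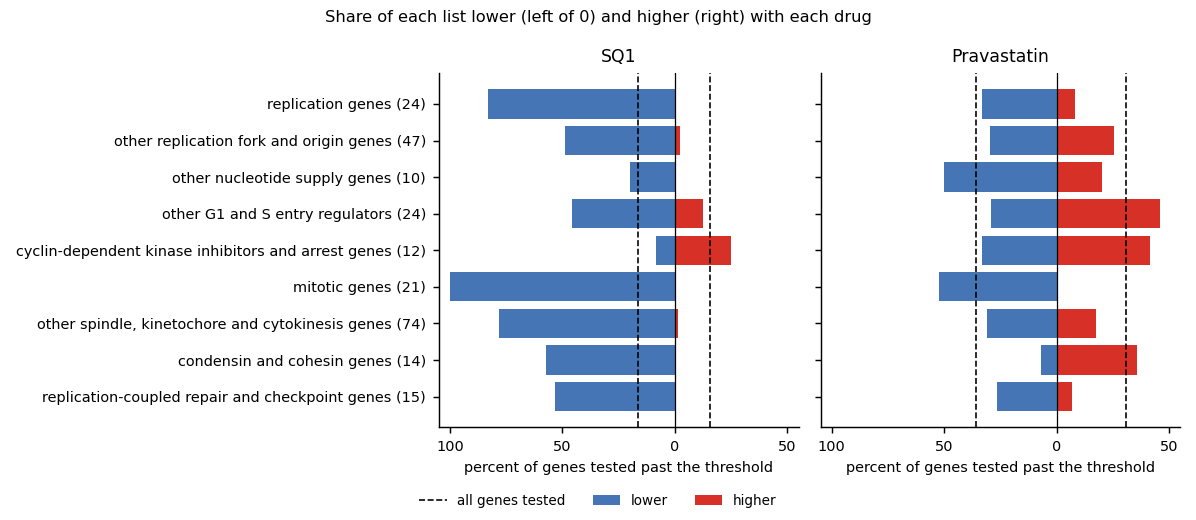
Percent of the tested genes of each list that passed the threshold with SQ1 (left panel) and pravastatin (right panel); bars to the left of 0 are genes called lower, bars to the right genes called higher, numbers in parentheses are genes tested, and dashed lines give the shares over all 15053 genes (16.5% and 15.8% with SQ1, 35.8% and 30.9% with pravastatin). The mitotic list reaches 100% lower with SQ1 and 52.4% with pravastatin.

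Markers of hepatocytes and of other liver cells were measured on the same arrays. Over all genes tested, 16.5% were lower and 15.8% higher with SQ1, and 35.8% and 30.9% with pravastatin. All 16 hepatocyte markers were well above background, and their summed intensity was 1323000 to 2152000 in untreated channels. With SQ1, 6 of 16 were lower and 0 higher (median -0.20), and with pravastatin 16 of 16 were lower (median -1.29), with summed intensities of 1134000 to 1697000 and 557000 to 1124000 in the treated channels. Of the 14 markers of Kupffer cells and leukocytes, Cd68 was not tested, and 6 of 13 were lower with SQ1 and 9 lower and 1 higher with pravastatin. Their summed intensities were 20350 to 35990 in untreated channels, 18250 to 30690 with SQ1 and 18030 to 33630 with pravastatin. Stellate cell markers gave 2 lower and 2 higher of 13 with SQ1 and 6 lower with pravastatin (sums of 83470 to 134100 untreated, 77780 to 115000 with SQ1 and 83190 to 116300 with pravastatin). Endothelial markers gave 5 higher of 11 with SQ1 and 4 lower and 4 higher with pravastatin (sums of 11990 to 16770, 14200 to 17160 and 10190 to 15560). Cholangiocyte markers gave 4 lower and 1 higher of 10 with SQ1 and 6 lower and 2 higher with pravastatin (sums of 152800 to 366900, 121600 to 240500 and 211800 to 268200). The stellate shares with SQ1 (15.4% lower and 15.4% higher) and the endothelial shares with pravastatin (36.4% and 36.4%) are near those of all genes. On slide 1 the hepatocyte marker median with SQ1 was -0.36 and on slide 2 it was 0.03, whereas the mitotic median was lower on slide 2. With slide as a random block the SQ1 counts were 4 lower for hepatocyte markers, 0 lower and 2 higher for stellate and 2 lower and 0 higher for cholangiocyte markers, and 1 endothelial marker was higher with pravastatin. The part of these cell types in the change of the replication and mitotic genes was not tested.

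As a check of drug action, 8 of 8 sterol pathway genes were higher with each drug (medians 1.21 and 0.43). Of the genes called over the whole array, 48.8% were higher with SQ1 and 46.3% with pravastatin, and 55.1% in SQ1 minus pravastatin. With median centring these shares were 71.2%, 61% and 59.1%, and with the Agilent ratio 54.1%, 56.8% and 44.7%. No replication or mitotic gene called in the main comparison changed sign under any alternative, and the mitotic median with SQ1 relative to that of all genes was -0.58 with loess, -0.56 with median centring and -0.66 with the Agilent ratio. The median standard error was 0.058 for the replication genes and 0.099 for the mitotic genes, against 0.040 for all genes.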

How the data were processed

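Transcripts of 8 SQ1 and 8 pravastatin cultures of mouse hepatocytes were each measured against an untreated culture on 2-colour Agilent arrays. The deposited scanner files hold median spot and background intensities, with no normalization by the authors. Per the file headers, Agilent Feature Extraction 11.0.1.1 made the processed signals (intensity) and the log10 ratio of red over green. Log2 values in the series table deposited by the authors followed that ratio turned to treated over control.

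Intensities were processed in R 4.3.3 with limma 3.58.1: normexp background correction with an offset of 50, loess within each array, and the mean of the spots of a probe. Spots marked as outliers were left out. Of 39429 probes, 27234 were named through RefSeq accessions. Probes entered the test when the Agilent mark for signal above background was set on 4 or more arrays of a drug, or in 8 or more control channels, and 7 or more arrays per drug gave a ratio. The brightest probe stood for a gene. lmFit and eBayes were run over the 16 arrays with a term for each drug and for the dye, which left 13 residual degrees of freedom. Tests were two-sided. The methods were tested on simulated data. The submitters describe the cultures as biological replicates.

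Arrays with the same replicate number share an untreated culture, by the files' own sample names, and their residuals correlated at 0.221 to 0.718. The array with the best-matching residuals carried the same number for only 3 replicate numbers (4, 5 and 6), and a different number for all others. The pairing of arrays by number therefore rests on the sample names, and the residuals alone do not establish it. The correlation within a replicate number was 0.47 and within a slide 0.271. The main fit leaves out these blocks, so that its p-values treat arrays as independent. Channel levels were taken after Aquantile normalization.

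The members and gene lists were chosen with earlier results of these data known. Genes named are, per list and drug, the 4 largest changes called with 1 sign on 8 of 8 arrays, all members called against their list or not called, the 3 largest differences between the drugs, and up to 3 genes of each other list. Other members were named to account for all 45. Single values of 2 genes of the other lists are not reported here. Alternatives were the Agilent ratio, median centring, the series table, other filters, the mean of all probes, blocks for slide, scan day and replicate, single slides, no dye term, array weights, fits on 1 drug, a threshold of 0.01 and leaving out each array.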

Additional observations from a re-analysis of the deposited data

How the results depend on the processing

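Both list medians with SQ1 and the mitotic median with pravastatin were below 0 under every alternative, while the replication median with pravastatin was -0.14 to 0.07. Median centring gave 11 replication genes lower with SQ1 (598 of all genes lower and 1478 higher), 5 mitotic genes lower and 7 replication genes higher with pravastatin (2797 of all genes lower and 4374 higher), and 7 replication and 2 mitotic genes lower in SQ1 minus pravastatin (1512 of all genes lower and 2184 higher). The Agilent ratio and the authors' deposited series table each gave 6 mitotic genes lower and 7 replication genes higher with pravastatin, and in SQ1 minus pravastatin 11 mitotic genes lower and a replication median of -0.36. With the Agilent ratio 4624 of all genes were lower and 6087 higher with pravastatin, and 4851 were lower in SQ1 minus pravastatin. The series table gave 4619, 6084 and 4849. Slide as a random block left 1321 of all genes lower and 1224 higher with SQ1. It gave 3 mitotic genes lower with pravastatin (4527 of all genes) and 0 in SQ1 minus pravastatin (2420 of all genes). Slide terms gave 8 mitotic genes lower in SQ1 minus pravastatin (3970 of all genes). Within slide 1, 12 replication genes were lower with SQ1 (2932 of all genes). Within slide 3, 0 mitotic genes were lower (5298 of all genes) and 7 replication genes higher (4386 of all genes) with pravastatin. Scan day as a random block gave 12 replication and 8 mitotic genes lower with SQ1 (1246 of all genes lower and 990 higher). It gave 4 mitotic genes lower with pravastatin (4560 of all genes) and 1 in SQ1 minus pravastatin (3259 of all genes). Pairing by the replicate block gave 17 mitotic genes lower in SQ1 minus pravastatin (18 with fixed pairs) and 2 replication genes higher in both forms. Of all genes, 4410 were lower and 5219 higher with the random block, and 4296 and 5115 with fixed pairs. Array weights gave 8 mitotic genes lower in SQ1 minus pravastatin (3815 of all genes). At an adjusted p of 0.01, 1575 of all genes were lower and 1542 higher with SQ1. The mitotic genes lower were 5 with pravastatin (4694 of all genes) and 1 in SQ1 minus pravastatin (2701 of all genes). The cause of these changes was not tested.

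Leaving out each array in turn gave 18 to 20 replication and 21 to 21 mitotic genes lower with SQ1, with medians of -0.36 to -0.27 and -0.65 to -0.48. With pravastatin it gave 7 to 13 mitotic genes lower (5132 to 5391 of all genes). In SQ1 minus pravastatin it gave 2 to 14 mitotic genes lower (3321 to 3717 of all genes) and 1 to 2 replication genes higher, 2 without pravastatin replicate 3 or 5. The replicate block changed the call of no member for either drug against its control.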

Other observations

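A few replication genes did not have their widest SD in the untreated cultures. Tk1, whose fall was among the largest with both drugs, had an SD of its channel level of 0.14 over the 8 untreated cultures, 0.18 over the SQ1 cultures and 0.23 over the pravastatin cultures. Rfc3, Tyms and E2f1 also had their smallest SD in untreated cells, at 0.081, 0.053 and 0.122, close to those with SQ1 (0.083, 0.057 and 0.129). The untreated level is the mean of the SQ1 and pravastatin arrays of a culture, and such averaging can narrow its SD. For Mcm10 the untreated SD of 0.27 lay between those of SQ1 (0.25) and pravastatin (0.32), and Cdk2 had its widest SD with SQ1 (0.07). Birc5 had the widest untreated SD of the 45 genes, 0.69, against 0.40 and 0.37 in treated cells.

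The genes that differed between slides of 1 drug did so by the following values. Ccne1 read -0.27 on slide 1 and -0.55 on slide 2 with SQ1 (limma adjusted p = 0.0333 for the difference), and -0.29 on slide 3 and -0.53 on slide 4 with pravastatin (limma adjusted p = 0.0424). Cdc6 read -0.26 and -0.69 and Gins2 -0.12 and -0.47 on the SQ1 slides. With pravastatin Mcm4 read 0.29 on slide 3 and -0.14 on slide 4, and Mcm6 read 0.17 and -0.13.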
